A study of Homo sapiens with 6 samples.

Results

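Myosins, the actin-related proteins and the Arp2/3 complex were followed in the human prostate cancer cell line DU145 after depletion of E6AP, the HECT-domain ubiquitin ligase encoded by UBE3A. Members were all rows of the gene count table whose symbol named a numbered myosin (MYO), a conventional myosin heavy chain (MYH) or light chain (MYL), an actin-related protein (ACTR) or a subunit of Arp2/3 (ARPC). The rule found 65 of 33835 genes, of which 53 had enough reads for a test and 12 did not. The shE6AP group was DU145 cells transduced with a short hairpin against E6AP (3 libraries) and the wobble group was DU145 cells transduced with a control for that hairpin (3 libraries). Both groups received doxycycline at 0.2 µg/ml for 2.5 days, which induces the hairpin. The labels do not describe the wobble sequence, nor whether either group is a clone or a pool of transduced cells. No label says that libraries of a group are from different cultures, so the p-values speak for the spread among these 6 samples alone, and that spread may be technical.

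Myosins are motors that walk on or pull actin filaments. Conventional myosin II is a hexamer of paired heavy chains, essential light chains and regulatory light chains, and phosphorylation of the regulatory chains switches on contraction of stress fibres and of the cytokinetic ring. Unconventional myosins act as single molecules or dimers that tether membranes, carry vesicles or build filopodia. The Arp2/3 complex, made of the actin-related proteins ARP2 and ARP3 and the ARPC subunits, starts new actin filaments as branches on older ones and so drives lamellipodia and endocytic actin. Other proteins named for their likeness to actin sit elsewhere, in dynactin, the partner of the dynein motor, or in chromatin remodelling complexes.

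Reads assigned to genes ran from 21558506 to 30488217 per library, and 1 read corresponded to 0.0328 to 0.0464 CPM, which is the read count over the library's gene reads times 1000000, before scaling. Levels below are CPM with trimmed-mean (TMM) scaling, given for libraries 1 to 3 of each group or as mean ± SD (n = 3 per group). Each fold change is the log2 of shE6AP over wobble. A gene was called when edgeR's quasi-likelihood test gave an adjusted p (Benjamini-Hochberg, over all 19433 genes tested) under 0.05. UBE3A had 14.2, 14.5 and 14.97 CPM in the shE6AP libraries, against 54.1, 55.4 and 57.9 CPM in the wobble libraries, a log2 fold change of -1.94. The epithelial markers EPCAM, CDH1, KRT8, KRT18 and KRT19 were all present, and all 5 were called. EPCAM rose, at 36.4 ± 0.683 CPM in shE6AP and 17.7 ± 0.692 CPM in wobble (log2 fold change of 1.04). KRT8 and KRT18 rose as well (0.22 and 0.33), whereas CDH1 and KRT19 fell (-0.16 and -0.13). The summed level of 9 skeletal and cardiac muscle markers was 26.1 to 27.9 CPM in shE6AP libraries and 29.9 to 34.6 CPM in wobble libraries, most of it from TTN, which was not called. Of these 9, TNNI3 at 1.88 ± 0.112 CPM in shE6AP and 4.33 ± 0.126 CPM in wobble and CKM at 1.09 ± 0.163 CPM in shE6AP and 1.57 ± 0.0962 CPM in wobble fell, and DES and MYOD1 averaged under 0.1 CPM in both groups.

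Across the members the balance was towards lower levels in shE6AP. Of 53 tested members, 8 rose and 33 fell, against 28.6% of all tested genes that rose and 30.4% that fell; among the members the shares were 15.1% and 62.3%. In either direction 41 members were called (77.4%), against 59.0% of all tested genes. Of the 37 tested members of at least 20 CPM, 33 were called (89.2%), and the share of all genes at that level was not measured. Without regard to sign, the median log2 fold change was 0.263 over the tested members and 0.264 over all tested genes. The median log2 fold change was -0.18 over the tested members and 0.0084 over all tested genes. The values of shE6AP and wobble libraries did not overlap for 39 tested members, 7 higher and 32 lower in shE6AP; over all tested genes, 62.6% did not overlap, 30.6% higher and 31.9% lower. Most changes were small. Only MYO5B rose and was at least doubled (3.23% of all tested genes), and MYO10, MYO1E and MYO1G fell and were at least halved (3.51% of all tested genes). Tested for a fold above 1.2 (glmTreat in edgeR), 5 members were higher and 16 lower, and so were 13.1% and 15.9% of all tested genes (29.0% in either direction). Reads on all 65 members together took 0.664 ± 0.00614% of an shE6AP library's gene reads and 0.775 ± 0.00893% of a wobble library's. In RNA from whole cultures, fewer cells expressing a gene and less RNA per cell cannot be told apart.

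**Figure D1:**
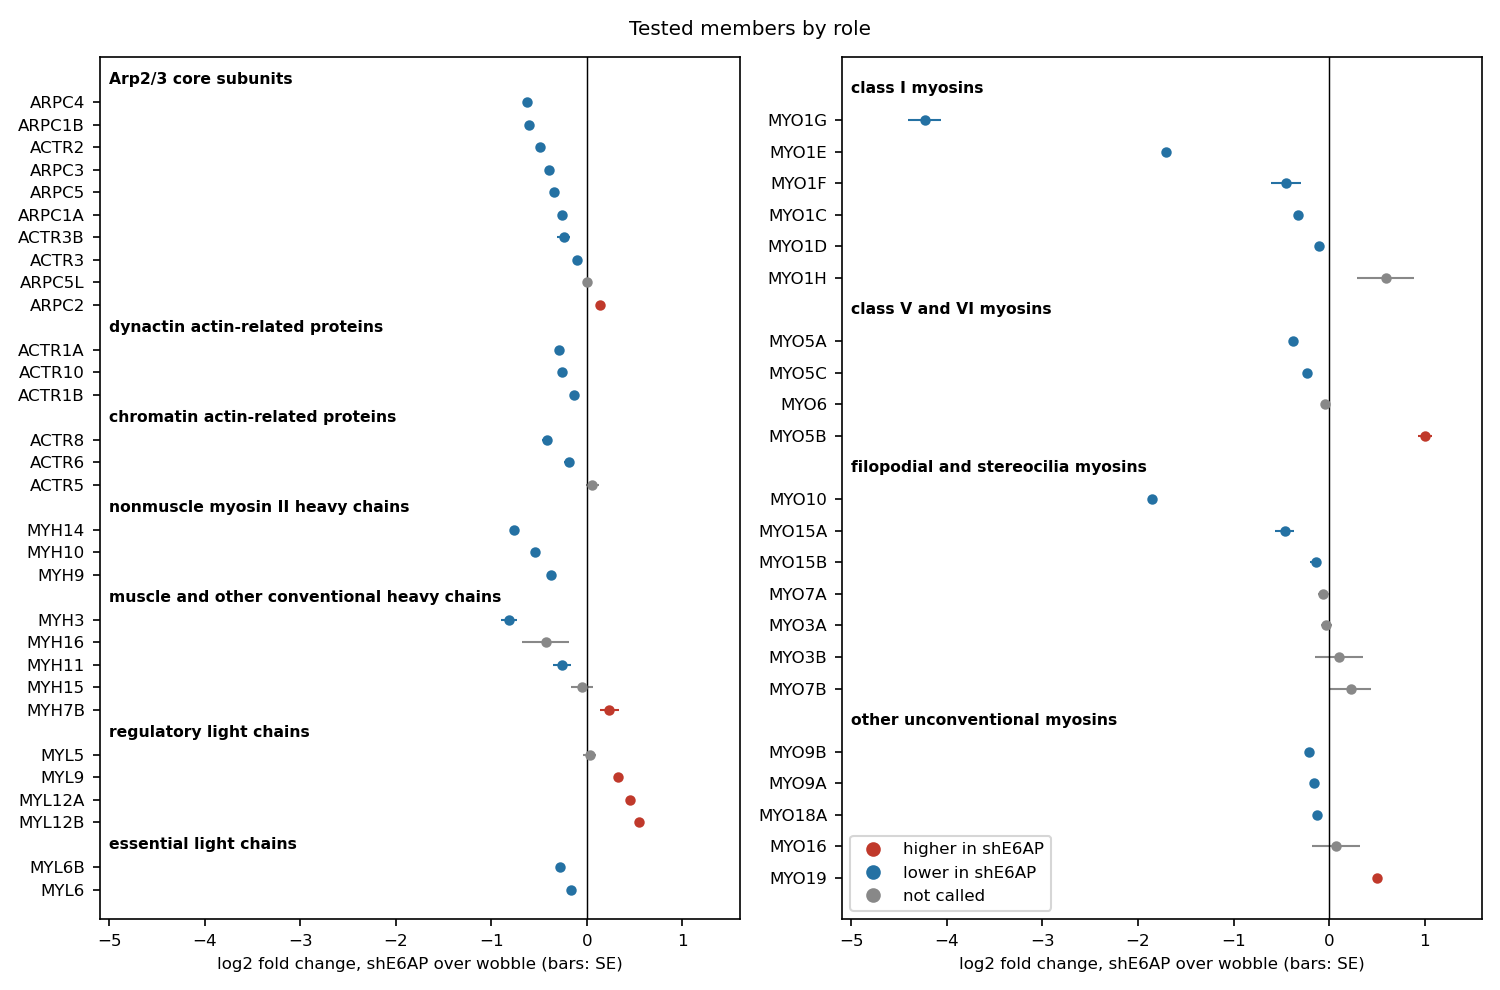
Log2 of shE6AP over wobble on the horizontal axis, with SE bars, for 52 of the 53 tested members, grouped by role; red points rose, blue points fell and grey points were not called by edgeR at an adjusted p under 0.05. Points lie mostly left of 0, with MYO1G, MYO10 and MYO1E farthest left and MYO5B farthest right; the regulatory light chains MYL9, MYL12A and MYL12B lie on the right.

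Most genes of the Arp2/3 complex fell. Of 10 tested members that encode its subunits or their paralogs, 8 fell, 1 rose (ARPC2) and 1 was not called (ARPC5L), with a median log2 fold change of -0.30. These are 80% lower and 10% higher, against 30.4% and 28.6% of all tested genes. ACTR2, which encodes ARP2, had 305, 295 and 303 CPM in the shE6AP libraries, against 412, 421 and 439 CPM in the wobble libraries (log2 fold change of -0.49, SE 0.032, edgeR adjusted p = 2.21e-17). Its highest shE6AP library was well below its lowest wobble library. ACTR3, which encodes ARP3, the other actin-like subunit, had 181, 177 and 186 CPM in the shE6AP libraries, against 196, 189 and 200.5 CPM in the wobble libraries. Its fall was much smaller, with a log2 fold change of -0.10, SE 0.034, edgeR adjusted p = 0.00672, although the 3 shE6AP libraries still lay below the 3 wobble libraries. ACTR3B, a paralog of ARP3, was at 13.9 ± 1.25 CPM in shE6AP and 16.4 ± 0.359 CPM in wobble (log2 fold change of -0.24, SE 0.068, edgeR adjusted p = 0.00198).

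Among the ARPC subunits the largest falls were in ARPC4 and ARPC1B. ARPC4, a core subunit that together with ARPC2 holds the complex on the mother filament, had 46.3, 45.1 and 45.2 CPM in the shE6AP libraries, against 74.4, 69.0 and 67.4 CPM in the wobble libraries. That is a log2 fold change of -0.63, SE 0.042, edgeR adjusted p = 5.04e-17. ARPC1B, one of a pair of alternative WD-repeat subunits, had 208, 193 and 205 CPM in the shE6AP libraries, against 328, 301 and 296 CPM in the wobble libraries (log2 fold change of -0.61, SE 0.036, edgeR adjusted p = 9.75e-19). Its partner in that position, ARPC1A, had 128, 127 and 118 CPM in the shE6AP libraries, against 152, 148 and 146 CPM in the wobble libraries (log2 fold change of -0.26, SE 0.036, edgeR adjusted p = 2.91e-08). For ARPC4, ARPC1B and ARPC1A no shE6AP library reached the lowest wobble library.

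ARPC3, a small subunit that contacts ARP3, was at 118 ± 1.71 CPM in shE6AP and 156 ± 3.42 CPM in wobble (log2 fold change of -0.40, SE 0.034, edgeR adjusted p = 9.41e-14), and ARPC5, another position with alternative subunits, at 108 ± 4.33 CPM in shE6AP and 137 ± 3.55 CPM in wobble (log2 fold change of -0.35, SE 0.036, edgeR adjusted p = 2.58e-11). ARPC2 went the other way, with 218, 222 and 219.7 CPM in the shE6AP libraries, against 201, 195 and 202 CPM in the wobble libraries. Every shE6AP library was above every wobble library, by a log2 fold change of 0.14, SE 0.032, edgeR adjusted p = 0.000173. ARPC5L, the alternative to ARPC5, had 72.5, 72.7 and 72.4 CPM in the shE6AP libraries, against 74.6, 72.8 and 70.6 CPM in the wobble libraries. These values overlapped between the groups, and the log2 fold change was -0.0031 with an SE of 0.038 (edgeR adjusted p = 0.952); its sign turned with upper-quartile, RLE or library-total scaling.

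**Figure D2:**
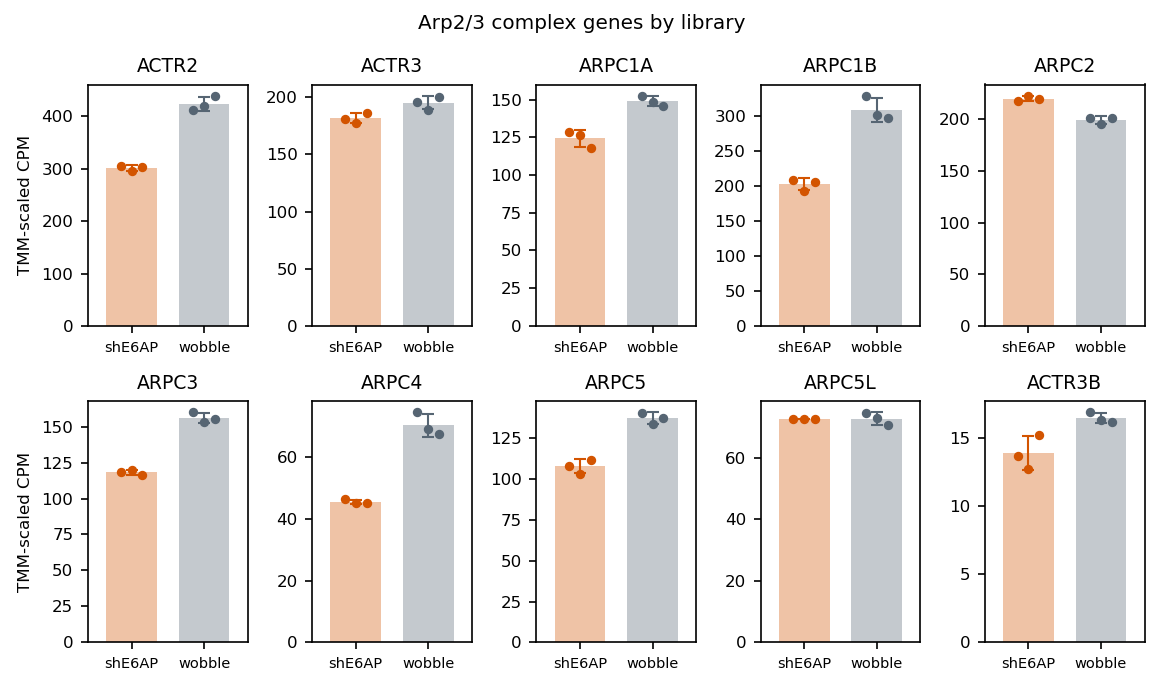
Level in TMM-scaled CPM (vertical axes, each from 0) of 10 genes of the Arp2/3 complex in shE6AP and wobble; each point is a library (3 per group), each bar a group mean with its SD. ARPC1B and ARPC4 show the widest gaps with shE6AP below wobble, ARPC2 is the gene with shE6AP above wobble, and the groups coincide for ARPC5L.

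Summed over the 10 genes, Arp2/3 reads came to 1387 ± 17.1 CPM in shE6AP and 1728 ± 29.2 CPM in wobble, so that 80.2% of the wobble level remained (two-sided exact permutation test, p = 0.1, which no split of 3 against 3 can go below). Levels per kilobase of exon (CPM divided by the exon length of the gene models of GENCODE release 29 on GRCh38) set the subunits of the complex beside each other. Exons of all isoforms in the basic set of that release, which leaves out part of the annotated isoforms, were merged. A gene with long alternative ends, such as ARPC5 with 7249 bases of exon, thus comes out low. The order of the genes depends on these lengths. In CPM per kilobase, ARPC3 stood at 117 ± 1.69 in shE6AP and 154 ± 3.37 in wobble, ARPC2 at 128 ± 1.34 in shE6AP and 116 ± 2.15 in wobble, and ARPC1B at 93.5 ± 3.87 in shE6AP and 143 ± 8.03 in wobble. ARPC2 was thus the highest of the 10 in shE6AP and the third in wobble, behind ARPC3 and ARPC1B. ACTR2 and ARPC1A followed, ACTR2 at 72.6 ± 1.30 in shE6AP and 102 ± 3.25 in wobble and ARPC1A at 79.4 ± 3.64 in shE6AP and 95.1 ± 2.07 in wobble. ACTR3, ARPC5L, ARPC4 and ARPC5 formed a lower tier, between 14.9 and 28.9 CPM per kilobase in shE6AP and between 18.9 and 29.0 in wobble; in wobble ARPC5L at 29.0 ± 0.794 and ACTR3 at 28.1 ± 0.841 differed by no more than their spread. ACTR3B was lowest at 6.26 ± 0.566 in shE6AP and 7.42 ± 0.162 in wobble.

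The balance of reads between alternative subunits was set beside the spread between libraries by their ratio within each library. The ratio of ARPC1B to ARPC1A reads was 1.63, 1.52 and 1.74 in the shE6AP libraries, against 2.15, 2.03 and 2.03 in the wobble libraries. The ratio of ARPC5L to ARPC5 reads was 0.669, 0.704 and 0.647 in the shE6AP libraries, against 0.530, 0.545 and 0.513 in the wobble libraries. Neither ratio overlapped between the groups. For the first the difference on the log2 scale was -0.35 and for the second it was 0.35. Of 14 ratios between related members compared in this way, 11 did not overlap between the groups. For single genes, the levels of 62.6% of all tested genes did not overlap, and ratios of other gene pairs were not measured. Each of those 11 ratios had an exact two-sided permutation p of 0.1, the smallest this design allows, and p = 0.127 after Benjamini-Hochberg adjustment over the 14. Exons of ARPC1A and ARPC1B are both covered by another GENCODE gene, AC004922.1, over 70.7% and 59.8% of their length, and ARPC4 shares 28.9% of its exon length with ARPC4-TTLL3 and TADA3. Other tested members that share over 10% of their exon length with another gene are MYL6B (18.1%), MYH11 (14.6%), MYO18A (13.7%) and MYL5 (10.5%). The sources used here give neither the annotation behind the counts nor its strand setting. Reads of these 7 genes may thus have been split or set aside as ambiguous.

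**Figure D3:**
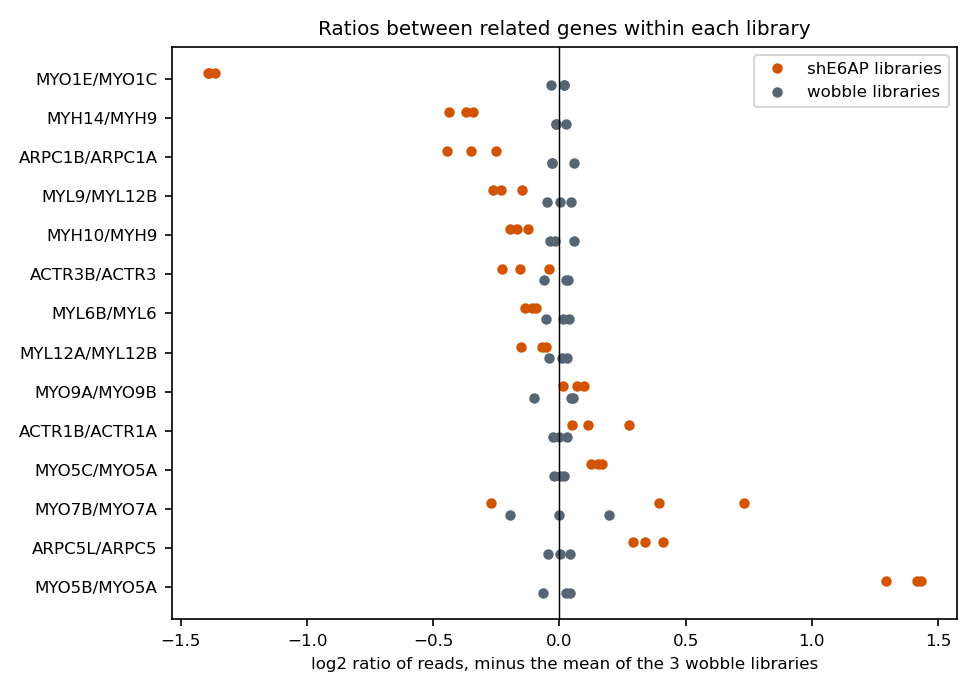
Log2 ratio of reads between related members within each library, minus the mean of the 3 wobble libraries (horizontal axis), for 14 pairs (vertical axis); orange points are shE6AP libraries and grey points wobble libraries. MYO1E to MYO1C and MYO5B to MYO5A lie farthest from 0, and the groups overlap for ACTR3B to ACTR3, MYO9A to MYO9B and MYO7B to MYO7A.

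Actin-related proteins outside Arp2/3 fell or were not called, with the largest fall in ACTR8. ACTR1A, which forms the filament of dynactin, was at 122 ± 1.12 CPM in shE6AP and 149.6 ± 3.92 CPM in wobble (log2 fold change of -0.29, SE 0.034, edgeR adjusted p = 7.37e-10). ACTR10, at the pointed end of the same filament, was at 46.2 ± 1.95 CPM in shE6AP and 55.5 ± 1.71 CPM in wobble with a log2 fold change of -0.26. ACTR1B, a paralog of ACTR1A, had 50.2, 42.7 and 44.1 CPM in the shE6AP libraries, against 51.8, 50.4 and 48.8 CPM in the wobble libraries. Its libraries overlapped between the groups, and its call (log2 fold change -0.13, edgeR adjusted p = 0.0135) ended without shE6AP library 2 (adjusted p = 0.116), without shE6AP library 3 (0.0932), with upper-quartile scaling (0.0541) and in DESeq2 (0.0585); over its alternatives the adjusted p ran from 0.000225 to 1. In chromatin remodelling complexes, ACTR8 of the INO80 complex fell to 23.0 ± 0.800 CPM in shE6AP, against 30.8 ± 1.27 CPM in wobble (log2 fold change of -0.42, SE 0.052, edgeR adjusted p = 2.79e-09). ACTR6 of the SRCAP complex was at 25.6 ± 1.53 CPM in shE6AP and 29.2 ± 1.71 CPM in wobble (log2 fold change -0.18), and ACTR5 of INO80 at 16.0 ± 1.17 CPM in shE6AP and 15.3 ± 0.550 CPM in wobble, which was not called (edgeR adjusted p = 0.464). Of 19 tested partners of these proteins in dynactin, INO80 and SRCAP, 5 rose (26.3%) and 8 fell (42.1%), against 28.6% and 30.4% of all tested genes, with a median log2 fold change of -0.034. RUVBL1, an ATPase of INO80, fell by 0.60 on the log2 scale, and DCTN4 and SRCAP by 0.35 and 0.24. NFRKB, DCTN6 and YY1 rose by 0.49, 0.55 and 0.25.

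In nonmuscle myosin II all 3 heavy chain genes fell (MYH9, MYH10 and MYH14), while of 4 tested regulatory light chain genes 3 rose (MYL9, MYL12A and MYL12B) and MYL5 was not called. Over all tested genes, 30.4% fell and 28.6% rose. MYH9, the heavy chain of nonmuscle myosin IIA and the member with the most reads, had 1345, 1381 and 1341 CPM in the shE6AP libraries, against 1785, 1771 and 1727 CPM in the wobble libraries (log2 fold change of -0.38, SE 0.032, edgeR adjusted p = 4.94e-14). MYH10, the heavy chain of myosin IIB, had 228, 239 and 239 CPM in the shE6AP libraries, against 338, 340.3 and 349 CPM in the wobble libraries (log2 fold change of -0.54, SE 0.032, edgeR adjusted p = 9.63e-19). MYH14, the heavy chain of myosin IIC, had 47.7, 51.2 and 50.7 CPM in the shE6AP libraries, against 87.2, 84.2 and 82.1 CPM in the wobble libraries (log2 fold change of -0.76, SE 0.040, edgeR adjusted p = 1.42e-20). For all 3 the shE6AP libraries lay below the wobble libraries without overlap. Their sum was 1641 ± 26.7 CPM in shE6AP and 2188 ± 26.5 CPM in wobble, 75.0% of the wobble level (exact two-sided permutation p = 0.1, the smallest possible). MYH9 held 82.5% ± 0.382 of the 3 heavy chains per length in shE6AP and 80.3% ± 0.397 in wobble. The ratio of MYH14 to MYH9 reads was 0.0354, 0.0371 and 0.0378 in the shE6AP libraries, against 0.0488, 0.0476 and 0.0476 in the wobble libraries, and that of MYH10 to MYH9 was 0.170, 0.173 and 0.178 in the shE6AP libraries, against 0.189, 0.192 and 0.202 in the wobble libraries; both were lower in shE6AP without overlap.

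MYL12B, which encodes a regulatory light chain of nonmuscle myosin II, had 575, 551 and 540.3 CPM in the shE6AP libraries, against 396, 363 and 385 CPM in the wobble libraries (log2 fold change of 0.54, SE 0.034, edgeR adjusted p = 3.85e-18). MYL12A, its neighbour and close paralog, had 371, 377 and 374 CPM in the shE6AP libraries, against 286, 266 and 268 CPM in the wobble libraries (log2 fold change of 0.45, SE 0.033, edgeR adjusted p = 6.02e-16). MYL9, the regulatory chain typical of smooth muscle and of contractile cells, had 186, 189 and 171 CPM in the shE6AP libraries, against 151, 142 and 141 CPM in the wobble libraries (log2 fold change of 0.33, SE 0.037, edgeR adjusted p = 1.71e-10). In each of the 3 genes every shE6AP library was above every wobble library. The summed level of 6 smooth muscle markers was 54.9 to 60.5 CPM in shE6AP libraries and 48.0 to 50.9 CPM in wobble libraries, with MYOCD and CNN1 at 1 read or none in each library. TAGLN, at 15.9 ± 1.71 CPM in shE6AP and 9.12 ± 0.379 CPM in wobble, and SMTN, at 26.9 ± 1.87 CPM in shE6AP and 23.8 ± 0.348 CPM in wobble, rose (log2 fold changes of 0.81 and 0.18), while ACTA2 and LMOD1 were not called. The markers' part in the rise of MYL9 was not tested. MYL5, a further regulatory chain, was at 14.5 ± 1.13 CPM in shE6AP and 14.3 ± 0.466 CPM in wobble and was not called (edgeR adjusted p = 0.748). The 7 regulatory light chain genes in the table together had 1126 ± 24.8 CPM in shE6AP and 814 ± 30.5 CPM in wobble, 138% of the wobble level. In GENCODE transcripts, 5.86% of the distinct runs of 50 bases in MYL12B transcripts also occur in another gene, mainly in MYL12A, and 6.10% of those in MYL12A transcripts, mainly in the GENCODE gene AP005329.1, whereas MYL9 shares none.

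Essential light chains fell too. MYL6, the essential chain of nonmuscle and smooth muscle myosin, had 491, 475 and 465 CPM in the shE6AP libraries, against 567, 517 and 517 CPM in the wobble libraries (log2 fold change of -0.16, SE 0.034, edgeR adjusted p = 8.36e-05). MYL6B, its neighbour on chromosome 12, was at 51.6 ± 1.02 CPM in shE6AP and 62.3 ± 4.42 CPM in wobble (log2 fold change of -0.28, SE 0.044, edgeR adjusted p = 6.09e-07). Both fell without overlap between the groups, and their sum with MYL3 and MYL4 came to 529 ± 14.3 CPM in shE6AP and 596 ± 33.3 CPM in wobble, 88.7% of the wobble level.

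**Figure D4:**
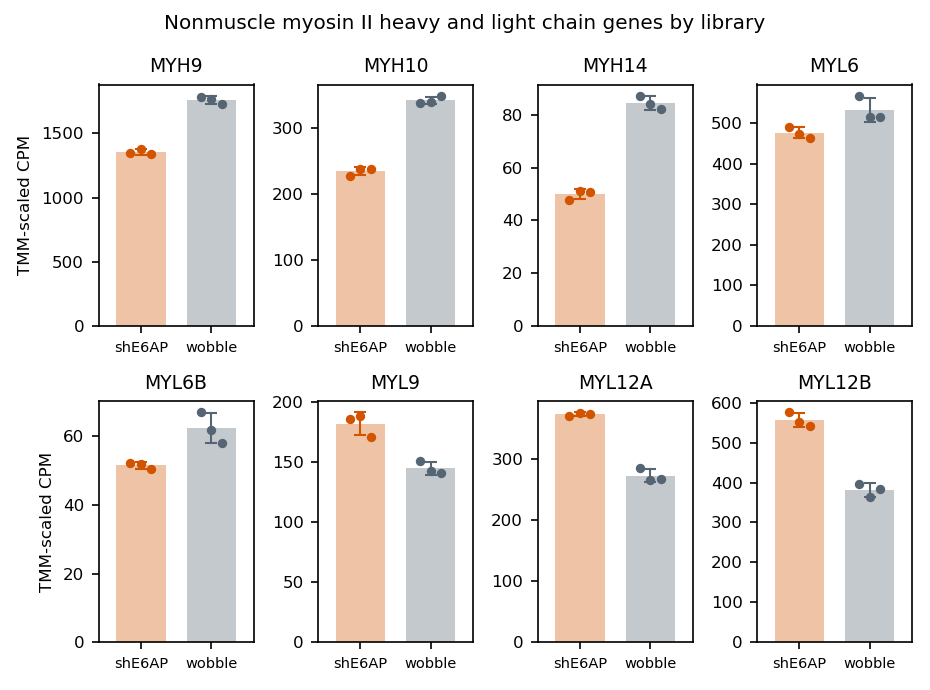
Level in TMM-scaled CPM (vertical axes, each from 0) of the nonmuscle myosin II heavy chain genes and of the light chain genes with at least 50 CPM, in shE6AP and wobble; each point is a library (3 per group), each bar a group mean with its SD. MYH9, MYH10, MYH14, MYL6 and MYL6B are lower in shE6AP, whereas MYL9, MYL12A and MYL12B are higher.

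MYL12A and MYL12B lie side by side on chromosome 18, which also holds MYO5B, and all 3 tested members of that chromosome rose. Of 204 tested genes assigned to chromosome 18, 63.7% rose and 12.3% fell, with a median log2 fold change of 0.29, against 28.6% and 30.4% over all tested genes. MYL9 is on chromosome 20, where 41.5% of 412 tested genes rose and the median was 0.11. ARPC4 and ACTR8 are on chromosome 3, where 53.8% of 846 tested genes fell and the median was -0.23. Not all members went with their chromosome. MYH15, also on chromosome 3, was not called, and on chromosome 20 MYH7B rose while ACTR5 was not called. MYO10, which fell, is on chromosome 5, where 43.3% of 672 tested genes rose and 22.6% fell. MYL5, which was not called, is on chromosome 4, where 49.2% of 535 tested genes rose and 19.1% fell. The part of these chromosome-wide differences in the members' changes was not tested.

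Heavy chains known from muscle were low in these cells. MYH3, the embryonic skeletal heavy chain, had 8.17, 9.18 and 7.55 CPM in the shE6AP libraries, against 14.7, 15.7 and 13.2 CPM in the wobble libraries and fell (log2 fold change of -0.82, SE 0.080, edgeR adjusted p = 6.52e-12). MYH11, the smooth muscle heavy chain, was at 6.02 ± 0.274 CPM in shE6AP and 7.18 ± 0.501 CPM in wobble; its call (log2 fold change -0.26, edgeR adjusted p = 0.016) ended without shE6AP library 1 (0.0689), without wobble library 2 (0.0583) and in DESeq2 (0.089); over its alternatives the adjusted p ran from 0.00667 to 0.538. MYH7B, an ancient heavy chain of slow muscle, was at 6.97 ± 0.793 CPM in shE6AP and 5.92 ± 0.763 CPM in wobble, with overlapping libraries, and its call (log2 fold change 0.24, edgeR adjusted p = 0.0449) ended without shE6AP library 1 (0.0989), without shE6AP library 3 (0.24), without wobble library 3 (0.292), without a low-count filter (0.0807), in limma-voom (0.051) and in DESeq2 (0.138); over its alternatives the adjusted p ran from 0.0148 to 0.654. MYH15 at 4.48 ± 0.338 CPM in shE6AP and 4.64 ± 0.514 CPM in wobble and MYH16 at 0.703 ± 0.117 CPM in shE6AP and 0.948 ± 0.0700 CPM in wobble were not called. MYH1, MYH4, MYH6, MYH8 and MYH13, skeletal and cardiac heavy chains, had at most 3 reads in any library and were not tested. Among the light chains of muscle, MYL2 and MYL7 also had at most 3 reads in any library, MYL3 at most 4 and MYL4 at most 10.

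Unconventional myosins held the largest changes among the members. Of 23 tested, 3 rose, MYO5B and MYO19 among them, 13 fell and 7 were not called, with a median log2 fold change of -0.13. These are 13.04% higher and 56.5% lower, against 28.6% and 30.4% of all tested genes. Summed over the 25 genes in the table, their level was 1642 ± 20.03 CPM in shE6AP and 2094 ± 13.3 CPM in wobble, 78.4% of the wobble level. The bases just before the annotated start of the 3 members that were at least halved (MYO10, MYO1E and MYO1G) and of the 1 that was doubled (MYO5B) are shown because these genes carry the largest differences; each run holds 250 bases upstream of the start in RefSeq on build GRCh38.p14, minus strand, from chr5:16936289-16936538, chr15:59372872-59373121, chr7:44979016-44979265 and chr18:50195148-50195397, with GC boxes (GGGCGG on either strand) in capitals.
MYO10: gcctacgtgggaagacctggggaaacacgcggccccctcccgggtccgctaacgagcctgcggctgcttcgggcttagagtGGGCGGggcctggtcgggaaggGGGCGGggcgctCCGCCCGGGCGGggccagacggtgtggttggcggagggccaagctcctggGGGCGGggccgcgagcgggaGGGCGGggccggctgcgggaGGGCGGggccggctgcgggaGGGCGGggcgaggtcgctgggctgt
MYO1E: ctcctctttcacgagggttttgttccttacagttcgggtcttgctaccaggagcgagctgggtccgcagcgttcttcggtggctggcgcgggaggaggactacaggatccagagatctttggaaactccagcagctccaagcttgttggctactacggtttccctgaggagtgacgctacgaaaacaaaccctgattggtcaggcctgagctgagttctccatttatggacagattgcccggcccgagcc
MYO1G: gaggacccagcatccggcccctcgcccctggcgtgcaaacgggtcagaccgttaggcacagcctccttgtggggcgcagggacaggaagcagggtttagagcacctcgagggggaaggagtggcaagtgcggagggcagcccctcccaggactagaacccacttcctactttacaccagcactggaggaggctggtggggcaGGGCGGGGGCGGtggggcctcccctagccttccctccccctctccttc
MYO5B: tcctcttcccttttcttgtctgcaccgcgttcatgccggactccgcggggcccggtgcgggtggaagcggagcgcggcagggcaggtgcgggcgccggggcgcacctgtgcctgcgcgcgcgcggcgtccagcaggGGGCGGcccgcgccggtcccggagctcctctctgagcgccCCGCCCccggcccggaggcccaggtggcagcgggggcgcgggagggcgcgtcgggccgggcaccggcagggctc

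The window of MYO10 held 8 GC boxes, that of MYO1E 0, that of MYO1G 2 and that of MYO5B 2. Among 35116 RefSeq windows of the same length, 42.6% held at least 1 GC box and 4.15% held 5 or more. Among the 4 windows, a CCAAT box (CCAAT on either strand) was found only in the window of MYO1E, once, against 32.0% of all windows, and a TATA box (TATAAA on either strand) in none, against 10.7% of all windows. GC content was 78.8% for MYO10, 56.0% for MYO1E, 67.2% for MYO1G and 80.0% for MYO5B. None of these motifs was present in the windows of all 3 genes that fell furthest, and a match describes sequence, not binding. No match of one motif overlapped a match of another.

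MYO10, a motor that travels to the tips of filopodia and carries integrins there, had 57.8, 61.1 and 59.4 CPM in the shE6AP libraries, against 213, 218 and 211 CPM in the wobble libraries. It was 3.61-fold lower, with a log2 fold change of -1.85, SE 0.036, edgeR adjusted p = 6.07e-36. MYO1E, a long-tailed class I myosin of endocytic actin and podosomes, had 51.8, 52.8 and 52.9 CPM in the shE6AP libraries, against 169, 173 and 172 CPM in the wobble libraries. It was 3.26-fold lower, with a log2 fold change of -1.71, SE 0.037, edgeR adjusted p = 1.45e-34. MYO1G, a short-tailed class I myosin best known from blood cells, had 0.386, 0.703 and 0.292 CPM in the shE6AP libraries, against 8.29, 8.41 and 8.82 CPM in the wobble libraries. Its 11, 15 and 7 reads in shE6AP stood against 251, 243 and 239 in wobble, an 18.8-fold lower level (log2 fold change of -4.23, SE 0.17, edgeR adjusted p = 1.23e-24). For these 3 genes the highest shE6AP library was far below the lowest wobble library. Of the blood cell markers, PTPRC was at 0.359 ± 0.0713 CPM in shE6AP and 0.267 ± 0.0993 CPM in wobble and LYZ at 2.78 ± 0.0625 CPM in shE6AP and 2.36 ± 0.358 CPM in wobble, neither of them called. CD14 rose, at 2.41 ± 0.486 CPM in shE6AP and 0.700 ± 0.207 CPM in wobble. Over the 4 blood markers matched, the summed level was 5.29 to 6.34 CPM in shE6AP libraries and 3.36 to 4.43 CPM in wobble libraries. The part of these markers in the fall of MYO1G was not tested.

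**Figure D5:**
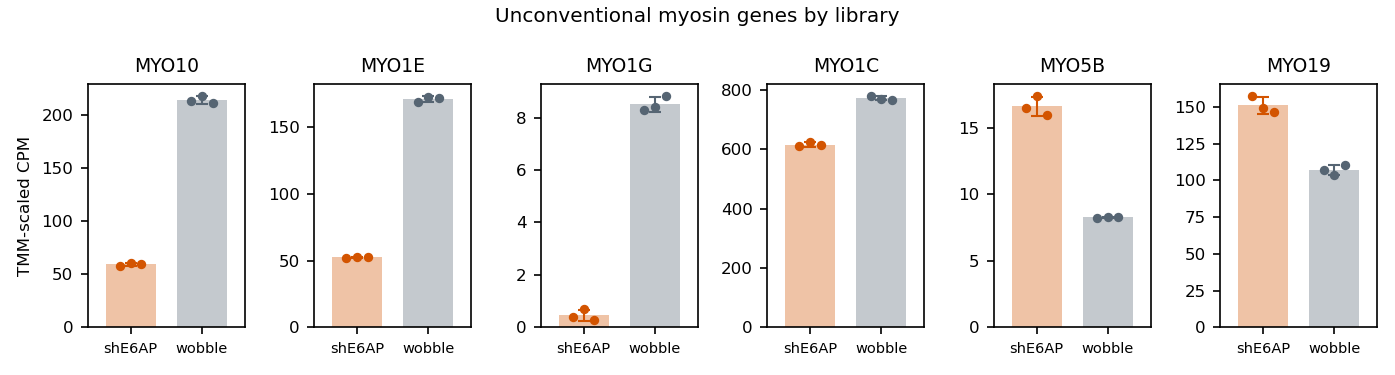
Level in TMM-scaled CPM (vertical axes, each from 0) of 6 unconventional myosin genes in shE6AP and wobble; each point is a library (3 per group), each bar a group mean with its SD. MYO10, MYO1E and MYO1G are far lower in shE6AP than in wobble, MYO1C is slightly lower, and MYO5B and MYO19 are higher.

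The other class I myosins differed less than MYO1E and MYO1G. MYO1C, a motor of plasma membrane tension and vesicle delivery and the unconventional myosin with the most reads, had 609.5, 624 and 613 CPM in the shE6AP libraries, against 778, 769.9 and 764 CPM in the wobble libraries (log2 fold change of -0.33, SE 0.031, edgeR adjusted p = 1.98e-12). The ratio of MYO1E to MYO1C reads was 0.0850, 0.0846 and 0.0864 in the shE6AP libraries, against 0.217, 0.225 and 0.225 in the wobble libraries, a log2 difference of -1.38. MYO1D was at 63.8 ± 0.855 CPM in shE6AP and 68.4 ± 2.11 CPM in wobble, and its call (log2 fold change -0.10, adjusted p = 0.0203 in edgeR) ended without shE6AP library 1 (0.0703), without wobble library 1 (0.079), with upper-quartile scaling (0.0887) and in DESeq2 (0.0711); over its alternatives the adjusted p ran from 0.00545 to 1. MYO1F, a further class I myosin of blood cells, was at 1.81 ± 0.244 CPM in shE6AP and 2.50 ± 0.0646 CPM in wobble, and its call (log2 fold change -0.45, adjusted p = 0.0126 in edgeR) ended without shE6AP library 3 (0.0766) and in DESeq2 (0.0763); over its alternatives the adjusted p ran from 0.00813 to 0.12. MYO1H at 0.869 ± 0.305 CPM in shE6AP and 0.559 ± 0.219 CPM in wobble was not called, and MYO1A, the brush border myosin, had at most 4 reads in any library.

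Vesicle-transporting class V myosins diverged. MYO5B, which moves recycling endosomes towards the apical surface of epithelial cells, had 16.5, 17.4 and 16.0 CPM in the shE6AP libraries, against 8.22, 8.31 and 8.27 CPM in the wobble libraries. It was 2.01-fold higher, with a log2 fold change of 1.00, SE 0.072, edgeR adjusted p = 3.55e-16. MYO5A, the motor of melanosomes and secretory granules, had 88.1, 91.8 and 93.0 CPM in the shE6AP libraries, against 114, 117 and 124 CPM in the wobble libraries (log2 fold change of -0.38, SE 0.037, edgeR adjusted p = 6.93e-12). MYO5C, found in exocrine and other epithelia, was at 89.9 ± 3.01 CPM in shE6AP and 105 ± 3.03 CPM in wobble (log2 fold change of -0.23, SE 0.037, edgeR adjusted p = 9.7e-07). The ratio of MYO5B to MYO5A reads was 0.187, 0.189 and 0.172 in the shE6AP libraries, against 0.0721, 0.0713 and 0.0669 in the wobble libraries, so that it was 2.61-fold higher in shE6AP. Per kilobase of exon the order of levels within the class was the same in both groups, with MYO5C at 12.9 ± 0.432 in shE6AP and 15.1 ± 0.435 in wobble (CPM per kilobase), MYO5A at 7.38 ± 0.207 in shE6AP and 9.58 ± 0.402 in wobble and MYO5B at 1.71 ± 0.0733 in shE6AP and 0.853 ± 0.00426 in wobble. MYO6, the motor that walks towards the minus end of actin filaments, was at 44.2 ± 0.768 CPM in shE6AP and 45.6 ± 2.38 CPM in wobble and was not called (log2 fold change -0.046, SE 0.044, edgeR adjusted p = 0.382).

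MYO19, a myosin anchored in the outer mitochondrial membrane, had 157, 149 and 146 CPM in the shE6AP libraries, against 107, 104 and 111 CPM in the wobble libraries. The groups did not overlap, and the rise was a log2 fold change of 0.50, SE 0.036, edgeR adjusted p = 6.68e-16. The class IX myosins, which carry a domain that switches off small GTPases, both fell slightly: MYO9B was at 94.8 ± 0.582 CPM in shE6AP and 109.9 ± 3.05 CPM in wobble (log2 fold change -0.21) and MYO9A at 69.8 ± 2.47 CPM in shE6AP and 77.7 ± 5.57 CPM in wobble (log2 fold change -0.15), the libraries of MYO9A overlapping between the groups. MYO18A, a relative of myosin II without motor activity, was at 62.3 ± 2.54 CPM in shE6AP and 67.9 ± 2.83 CPM in wobble, and its call (log2 fold change -0.13, adjusted p = 0.00673 in edgeR) ended without shE6AP library 3 (0.0505) and without wobble library 2 (0.0635); over its alternatives the adjusted p ran from 0.000791 to 1. Among the myosins of hair cell stereocilia, MYO15A was at 5.28 ± 0.272 CPM in shE6AP and 7.28 ± 0.961 CPM in wobble and fell (log2 fold change -0.47), while MYO7A at 20.9 ± 0.833 CPM in shE6AP and 21.9 ± 1.02 CPM in wobble and MYO3A at 20.2 ± 0.498 CPM in shE6AP and 20.6 ± 0.0778 CPM in wobble were not called, nor was MYO3B at 0.767 ± 0.0679 CPM in shE6AP and 0.717 ± 0.0484 CPM in wobble. The paralog of MYO7A, MYO7B, was at 1.45 ± 0.430 CPM in shE6AP and 1.21 ± 0.112 CPM in wobble and was not called. MYO15B was at 19.2 ± 0.768 CPM in shE6AP and 21.2 ± 0.270 CPM in wobble, and its call (log2 fold change -0.14, adjusted p = 0.0341 in edgeR) ended without any one of shE6AP library 2 (0.0745), shE6AP library 3 (0.138), wobble library 2 (0.0621) and wobble library 3 (0.0684), and with upper-quartile scaling (0.0931), library totals (0.0552) and DESeq2 (0.127); over its alternatives the adjusted p ran from 0.0199 to 1. MYO16 at 0.846 ± 0.182 CPM in shE6AP and 0.804 ± 0.153 CPM in wobble was not called, and MYO18B and MYL10, with up to 6 and 11 reads in a library, were not tested.

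Genes that control the Arp2/3 complex moved both ways. Of 24 tested nucleation promoting factors and their activators, 10 rose (41.7%) and 9 fell (37.5%), with a median log2 fold change of -0.032; the background of all tested genes is 28.6% and 30.4%, with a median of 0.0084. CDC42, the GTPase that activates N-WASP, had 48.7, 46.1 and 45.3 CPM in the shE6AP libraries, against 114, 111 and 110.3 CPM in the wobble libraries (log2 fold change of -1.26, SE 0.039, edgeR adjusted p = 9.02e-29). RAC1, the GTPase that activates the WAVE complex, had 146, 153 and 147 CPM in the shE6AP libraries, against 309.5, 300.5 and 299 CPM in the wobble libraries (log2 fold change of -1.03, SE 0.033, edgeR adjusted p = 3.78e-28). Both were at least halved with no overlap between the groups, and NCKAP1, a scaffold subunit of the WAVE complex, fell by 0.51 on the log2 scale. JMY and WIPF3 rose by 0.46 and 0.88; WASH1, by 0.43, has near-identical copies at other chromosome ends, so its reads are uncertain. Among 9 tested inhibitors and debranching factors, 2 rose (22.2%) and 5 fell (55.6%), with a median of -0.29. CORO1B, a coronin that removes Arp2/3 from branches, fell by 0.58, CORO2A by 0.55 and CORO6 by 0.69, whereas GMFB, which prunes branches, rose by 0.44 on the log2 scale.

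Of 26 tested kinases, phosphatase subunits and GTPases that act on myosin II, 8 rose (30.8%) and 13 fell (50%), against 28.6% and 30.4% of all tested genes (median log2 fold change -0.11). PPP1CB, the catalytic subunit of the phosphatase that removes phosphate from the regulatory light chains, had 89.8, 83.7 and 89.4 CPM in the shE6AP libraries, against 222, 221 and 235 CPM in the wobble libraries (log2 fold change of -1.36, SE 0.037, edgeR adjusted p = 3.69e-31). PPP1R14A, an inhibitor of that phosphatase, was at 3.71 ± 0.171 CPM in shE6AP and 10.0 ± 0.997 CPM in wobble (log2 fold change -1.43), and PPP1R12A, the subunit that targets it to myosin, at 147 ± 1.25 CPM in shE6AP and 152 ± 5.15 CPM in wobble, which was not called. CDC42BPA, a kinase of the regulatory chain, fell by 0.62 on the log2 scale. CIT, the citron kinase of the cytokinetic ring, rose by 0.59, RND3, an atypical small GTPase, by 0.43, and the kinase DAPK1 by 0.50. Of 19 tested chaperones, calmodulins and adaptors of myosins, 6 rose (31.6%) and 9 fell (47.4%), with a median of -0.079. UNC45A, the chaperone that folds nonmuscle myosin heads, was at 49.1 ± 3.19 CPM in shE6AP and 75.4 ± 3.18 CPM in wobble (log2 fold change of -0.62, SE 0.043, edgeR adjusted p = 2.33e-16). LIMA1 and TAX1BP1, an adaptor of MYO6, fell by 0.58 and 0.43, and MLPH and RAB11FIP2, an adaptor of MYO5B, rose by 0.67 and 0.29 on the log2 scale.

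Formins and other nucleators that make unbranched filaments were even, with 6 of 17 tested higher (35.3%) and 6 lower (35.3%), against 28.6% and 30.4% of all tested genes (median log2 fold change 0.020). FHOD3, DAAM1 and FMN2 fell by 0.62, 0.56 and 1.38, and SPIRE1, DIAPH3 and INF2 rose by 0.40, 0.41 and 0.26 on the log2 scale. Of 31 actins, tropomyosins and turnover factors, 6 rose (19.4%) and 15 fell (48.4%), with a median of -0.11. ACTG1, cytoplasmic gamma actin, was at 1215 ± 26.1 CPM in shE6AP and 1938 ± 33.1 CPM in wobble (log2 fold change of -0.67, SE 0.032, edgeR adjusted p = 3.28e-22), and ACTB, beta actin, at 1756 ± 26.0 CPM in shE6AP and 1969 ± 58.5 CPM in wobble (log2 fold change -0.16); both have processed pseudogenes with which reads may be split. CAPZA1, a subunit of the barbed-end capping protein, fell by 1.10 and CAP1, which recycles actin monomers, by 0.58. SSH2, a cofilin phosphatase, rose by 0.39, TPM3 by 0.15 and TMOD2 by 0.28 on the log2 scale.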

How the data were processed

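RNA was sequenced from 3 shE6AP and 3 wobble libraries of DU145 cells, made with the TruSeq RNA kit version 2, per the labels' protocols. The submitters' processing notes name TopHat2 2.0.13, Bowtie2 and HTSeq, and the build hg19; they name neither an annotation nor a setting for strand. The authors deposited raw whole-number read counts for each gene. Of 33839 rows, 33835 were genes with values; 2 HTSeq summary rows (14.6% to 16.0% of reads outside genes and 2.05% to 2.21% ambiguous), 1 unnamed row (up to 4.59e-05% of reads) and 1 row without values were left out. Gene reads per library were 21558506 to 30488217, which limits precision for genes of a few reads.

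From the counts, edgeR 4.0.16 in R 4.3.3 was run with filterByExpr (19433 genes kept), TMM scaling and the quasi-likelihood test with group as the only term. P-values were Benjamini-Hochberg adjusted over all 19433 genes, with a threshold of 0.05. Standard errors were obtained by dividing the log2 fold change by the root of its F statistic. Ratios and sums were compared with exact two-sided permutation tests. The script was tested on simulated counts with known changes. Replicate numbers are in the library titles. Deviations of same-numbered libraries correlated weakly (0.0166 to 0.0438), and those of differently numbered libraries at -0.0325 to -0.00567. The main fit has no block, and a fit with the replicate number as a block was run beside it. Alternatives were other scalings, DESeq2 1.42.0, limma-voom (limma 3.58.1), other low-count filters, a replicate block, glmTreat and leaving out each library.

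Genes named were all tested Arp2/3, actin-related, nonmuscle heavy chain and light chain members, other members called or of at least 20 CPM, up to 3 called genes each way of each regulator list, and low members for completeness. ACTB, PPP1R12A, members that were not called under 20 CPM and the blood and muscle markers were named after their values were seen. Some values, of a member and of listed genes, are not reported here. Members and lists were chosen with earlier results of these data known. MYH2, MYH7, MYL1 and ARPIN were not analysed here. Exon lengths and shared runs came from GENCODE release 29, chromosomes and promoter windows (matched by symbol for 52 of 65 members) from RefSeq on GRCh38.p14; neither is the annotation behind the counts.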

Additional observations from a re-analysis of the deposited data

How the results depend on the processing

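Each of the 41 called members had the same direction under every alternative run; the sign changed under some alternatives for the uncalled ARPC5L, MYH15, MYL5, MYO16 and MYO3A, all near 0. Of 791 values of single members under alternatives, 740 stayed on the same side of the threshold, 48 lost the call and 3 gained it (all MYO1H). In all, 7 members lost it under an alternative other than glmTreat, and their values are given in the report. Requiring a fold above 1.2 (glmTreat) left 21 members called, 5 higher and 16 lower, against 41, 8 and 33; 5637 genes of all tested, against 11467; and 58 regulator genes, against 108, which follows from the stricter threshold. By list these were 10 nucleation promoting factors, 6 Arp2/3 inhibitors, 14 myosin II kinase and phosphatase genes, 9 chaperones, calmodulins and adaptors, 7 formins, 8 actins and turnover factors and 4 partners of actin-related proteins, against 19, 7, 21, 15, 12, 21 and 13. DESeq2 called 35 of the 41 members. With upper-quartile scaling the summed unconventional myosins differed by -0.32 on the log2 scale, against -0.35, the median of all genes moving by 0.0284. Leaving out 1 library at a time gave 36 to 40 members called (7 to 9 higher, 29 to 32 lower), 40 to 43 without overlap, 11 to 13 pairs without overlap, 103 to 110 regulator genes called and 10708 to 11084 genes called.

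With the replicate number as a block, 42 members and 11979 genes were called; the 41 members called without it remained and MYO1H was added. Correlations between same-numbered libraries were 0.0438, 0.0166 and 0.0372, under 0.1, and each library correlated best with its own number, a hint from the data and not the design. Depth limits the 12 untested members, of at most 11 reads in a library.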
